A study of Neurospora crassa with 2 samples.

Results

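In wild type (WT) *Neurospora crassa*, 7 genes of carotenoid synthesis, light repair and light response were followed: the pigment genes al-1, al-2 and al-3, the photoreceptor gene vvd, the cryptochrome gene cry, the photolyase gene phr and the regulator gene sub-1. They were chosen by name, as the rows of the deposited table that carry one of these symbols, and all 7 of them were found among its 10559 genes. The table holds RPKM values, which are reads on a gene per kilobase of its model and scaled to the total reads of the library, so levels can be set side by side between genes. Hyphae were harvested after 12 hr (WT-DD12) and 20 hr (WT-DD20) of growth in the dark in medium with 2% glucose, and polyA RNA was sequenced. Both time points used the same wild type strain, which carries the band (*bd*) allele and is of mating type *a*; *bd* is a *ras-1* allele used in clock work because it sharpens the bands of spores. The samples were described as duplicates, each an equal mix of 3 cultures, whereas each time point is 1 column of the table, which may be 1 sample or both. The time points therefore have no replicate check, no p-value was computed, and "higher" and "lower" compare the 2 columns.

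*Neurospora* senses blue light with the White Collar complex, a transcription factor made of WC-1, which holds the light-absorbing flavin, and WC-2. Light makes the complex switch on genes for orange carotenoid pigments, for repair of DNA damaged by ultraviolet (UV) light and for further regulators. In the dark the same complex drives the clock gene *frq*. VVD, a small flavin-binding photoreceptor, is itself made on illumination and then restrains the complex, so that the response fades under steady light. Both cultures are labelled dark, so the values are levels in darkness, and no light pulse is described for them. For its dark time course of *frq*, the paper mentions a move from constant light to darkness. Whether RNA made in earlier light was still present in these samples was not tested. The columns differ in hours spent in the dark. Time since any earlier light, clock phase and culture age cannot be told apart with them, and the part of each was not tested.

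Of the 7 genes, all but the photolyase gene were lower at DD20 beyond counting error, by amounts that differed from gene to gene. The share of all genes that pass this mark was not computed, so the count has no background beside it. Small differences also pass at this depth, as for wc-2 (1.12-fold lower). Of 10 other expressed light-response genes, described below, 7 had intervals below 0 and 1 above 0. The level of vvd at DD20 was 6.08% of that at DD12, that of al-1 was 22.2%, that of cry 47.4%, that of al-2 51.2%, that of sub-1 65.0% and that of al-3 69.9%. The photolyase gene phr was at 112% of its DD12 level, within counting error. Each library held about as many reads, 30712952 at DD12 and 29960356 at DD20, as recovered from the steps between the RPKM values. All intervals are 95% intervals that cover counting error only, not variation between cultures or RNA pools. They were computed on read pairs, because among genes with 1 to 10 reads an even number was the more frequent (60.9% of 202 genes at DD12, 59.0% of 205 at DD20).

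**Figure D1:**
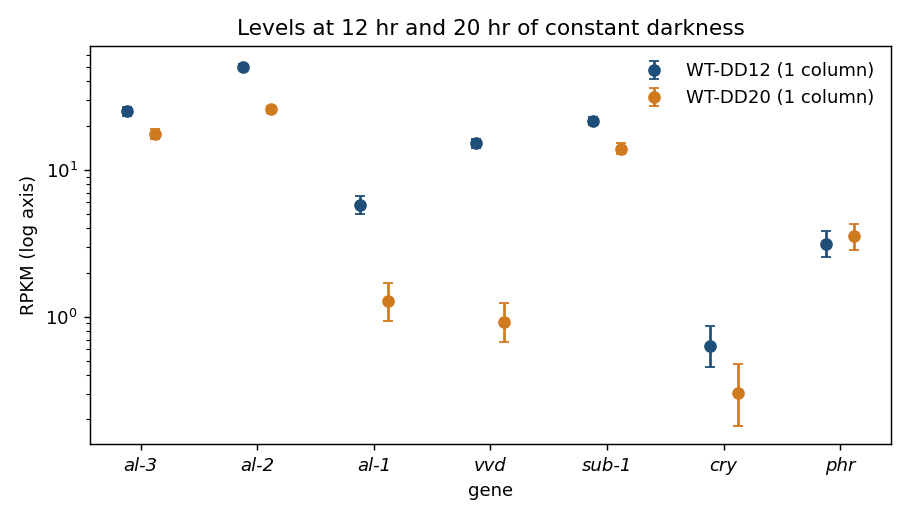
RPKM (log axis) of the 7 genes at DD12 and DD20, 1 point per deposited column, with bars for the 95% counting interval (exact Poisson on read pairs). The bars of the 2 columns are apart for al-3, al-2, al-1, vvd and sub-1; those of cry, 0.455 to 0.866 and 0.180 to 0.474 RPKM, and those of phr overlap.

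The carotenoid genes act one after another. AL-3, geranylgeranyl pyrophosphate synthase, makes the C20 precursor, which AL-2, a phytoene synthase that also cyclises carotenes, joins into phytoene, and AL-1, phytoene desaturase, then adds the double bonds that give colour. At DD12, 1747 reads gave al-3 a level of 25.0 RPKM, and at DD20, 1191 reads gave it 17.5 RPKM. That is a 1.43-fold lower level at DD20, with an interval of 1.29 to 1.59. Its gene model overlaps that of NCU01426 in the RefSeq annotation of assembly NC12. The overlap is short (a gap of -32 nt between the models, beside a recovered al-3 length of 2277 nt). The strand handling of the counts is not given in the sources used here, so reads in the shared stretch cannot be assigned. NCU01426 itself was at 15.2 RPKM at DD12 and 9.87 RPKM at DD20.

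The most abundant of the 7 genes at both time points was al-2. Its 4975 reads at DD12 made 50.4 RPKM and its 2485 reads at DD20 made 25.8 RPKM. The level at DD12 was above that of 90.4% of the genes in the table, and the level at DD20 above that of 80.6%. The ratio was 1.95-fold, and its interval, 1.82 to 2.09, spans the 2-fold line.

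The desaturase gene al-1 was the least abundant and the most different of the 3 pigment genes. It had 5.75 RPKM at DD12 and 1.28 RPKM at DD20, a 4.51-fold lower level with an interval of 3.25 to 6.37. The steps between values allowed a gene length of 2354 nt, which gives 416 reads at DD12 and 90 at DD20. A shorter length of 1177 nt would also give whole reads, 208 and 45, with a wider interval, and the RPKM values do not depend on the choice.

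The 3 pigment genes thus did not keep one proportion to each other. The RPKM of al-2 was 8.76 times that of al-1 at DD12 (interval 7.61 to 10.1) and 20.2 times at DD20 (15.03 to 27.9). The RPKM of al-3 was 4.34 times that of al-1 at DD12 (3.73 to 5.08) and 13.7 times at DD20 (10.1 to 18.98). Between al-2 and al-3 the proportion moved less, from 2.02 at DD12 (1.87 to 2.18) to 1.48 at DD20 (1.34 to 1.63). The intervals of each pair do not overlap, and a proportion within a column does not depend on how the libraries were scaled.

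Both vvd and sub-1 encode regulators of the light response. For vvd, 1466 reads at DD12 gave 15.2 RPKM and 87 reads at DD20 gave 0.923 RPKM. Genes were called expressed where their mean over both columns reached 1 RPKM, which 7414 genes did, and 4 of these had a lower log2 ratio (with 1 added to each RPKM) than vvd. Its 16.4-fold difference had an interval of 12.0 to 22.5, which does not reach that of any other of the 7 genes. At DD12 vvd was more abundant than 72.2% of the genes in the table, and at DD20 than 29.6%.

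SUB-1, a transcription factor of the GATA family known for its part in light-induced transcription and in sexual development, had 1801 reads or 21.4 RPKM at DD12 and 1142 reads or 13.9 RPKM at DD20. It was 1.54-fold lower at DD20 (interval 1.38 to 1.71). At DD12 its RPKM was 1.41 times that of vvd (1.28 to 1.56), and at DD20 it was 15.1 times that of vvd (10.97 to 20.8).

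CRY and PHR are flavoproteins of one family. PHR is the photolyase that mends UV-made pyrimidine dimers with the energy of light, while CRY is a cryptochrome of the DASH type. The level of cry was the lowest of the 7 genes, with 80 reads or 0.636 RPKM at DD12 and 37 reads or 0.302 RPKM at DD20. This is a 2.11-fold lower level with a wide interval, 1.21 to 4.02. In RefSeq the model of NCU00583 overlaps that of cry; NCU00583 is listed at 0 at both time points.

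The photolyase gene phr had 184 reads or 3.14 RPKM at DD12 and 201 reads or 3.52 RPKM at DD20. The log2 ratio without a pseudocount was 0.16, with an interval of -0.27 to 0.58, so a difference between the columns was not detectable at this depth. The RPKM of phr was 4.94 times that of cry at DD12 (3.38 to 7.36) and 11.7 times at DD20 (7.18 to 21.0), intervals that overlap narrowly.

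The order of the levels was al-2, al-3, sub-1, vvd, al-1, phr and cry at DD12, and no 2 neighbours in it had overlapping intervals. At DD20 it was al-2, al-3, sub-1, phr, al-1, vvd and cry, where the intervals of al-1 (0.931 to 1.71 RPKM) and vvd (0.669 to 1.24 RPKM) overlapped. The first 3 places and the last were the same at both time points, and vvd moved from the fourth to the sixth. By ratio, vvd came first and phr last, with al-1, cry, al-2, sub-1 and al-3 between them in that order. The interval of cry overlapped those of al-1, al-2, sub-1 and al-3, so its place among them is not resolved. Those of sub-1 and al-3 also overlapped.

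**Figure D2:**
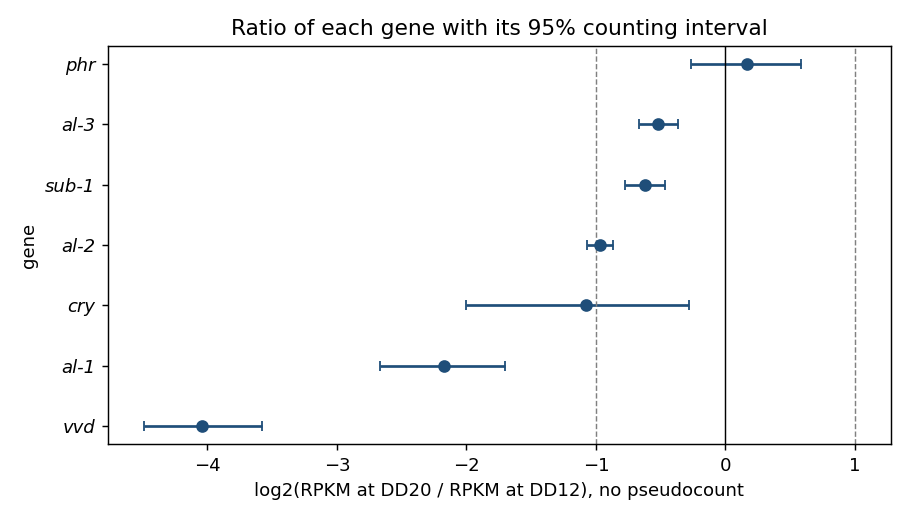
Log2 of the RPKM at DD20 over the RPKM at DD12 for each gene, with no pseudocount; bars are 95% counting intervals (exact Clopper-Pearson on read pairs) and dashed lines mark 2-fold. Only the interval of phr, -0.27 to 0.58, includes 0, and that of vvd, -4.49 to -3.58, lies apart from the rest.

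To set the genes beside the rest of the table, log2((RPKM at DD20 + 1)/(RPKM at DD12 + 1)) was used, which damps the ratios of genes with low values. On this scale vvd was at -3.07, al-1 at -1.57, al-2 at -0.94, sub-1 at -0.59, al-3 at -0.49, cry at -0.33 and phr at 0.13. All of the 7 genes but cry were expressed by the limit of 1 RPKM. Of these 6 genes, 2 (vvd and al-1) were lower at DD20 by 2-fold or more, against 2.33% of 7414 genes, and 0 were higher by 2-fold or more, against 0.742%. The median of the 6 genes was -0.76, while the median of all 7414 was 0.15 and 33.8% of them were below 0. The log2 ratio of al-1 was higher than that of 0.674% of all these genes, that of al-2 higher than 2.70%, that of sub-1 higher than 6.60%, that of al-3 higher than 8.62% and that of phr higher than 47.2%. Since the median of all genes was itself above 0, phr was at -0.024 when ratios were centred on it, and its direction depends on the scaling. Scaling also moves al-2 across the 2-fold line, to -1.09 with centred ratios.

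**Figure D3:**
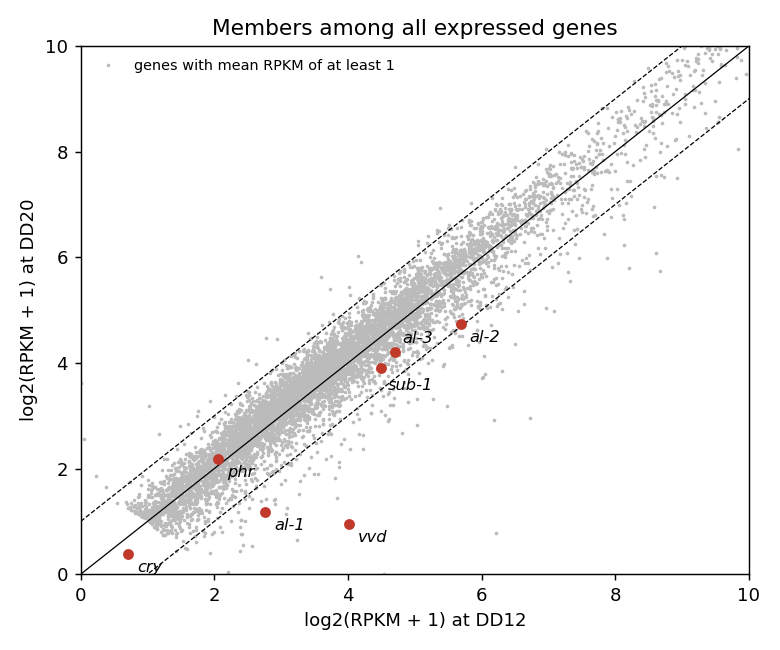
Log2(RPKM + 1) at DD12 against DD20 for the 7414 expressed genes (grey, axes end at 10) and the 7 genes (red), with lines of equality (solid) and 2-fold (dashed). vvd (-3.07) and al-1 (-1.57) lie below the lower dashed line, al-2 (-0.94) lies just inside it, and phr (0.13) lies on the bulk of the genes.

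Other genes tied to light were described from a list of 14, of which 13 were matched by symbol and 10 were expressed. Among the 10, 2 (csp-1 and con-6, both also conidial markers) were lower at DD20 by 2-fold or more, against 2.33% of all expressed genes. None was higher by 2-fold or more, against 0.742%, and the median log2 ratio of the 10 was -0.35. The expressed genes of this list for photoreceptors and for WC-2, the partner of WC-1, lay within 2-fold. In the order DD12 and DD20, wc-1 was at 6.52 and 6.64 RPKM, wc-2 at 20.0 and 17.9 RPKM, and the phytochrome gene phy-1 at 4.60 and 3.70 RPKM. The second phytochrome gene, phy-2 (0.205 and 0.0953 RPKM), and the opsin gene nop-1 (0.185 and 0.533 RPKM) were low, like cry, and did not reach the limit of 1 RPKM. The counting interval of nop-1 lay above 0 (0.20 to 3.52, without the added 1), from 11 reads at DD12 and 31 at DD20. The genes of the complex that drives vvd, wc-1 and wc-2, had log2 ratios of 0.023 and -0.15, beside -3.07 for vvd. The counting interval of wc-2 lay below 0 (-0.29 to -0.028, without the added 1), and that of wc-1 included 0. These are RNA levels, and the protein and activity of the complex were not measured in these samples. With centred ratios wc-1 is below 0, since the shift of 0.15 is larger than its value.

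Among regulators and light-induced genes, frq was at 5.47 RPKM at DD12 and 6.89 RPKM at DD20. Its counting interval lay above 0 (0.13 to 0.55, without the added 1), the only such interval among the expressed genes of this list. The gene frq also has an antisense transcript, whose reads cannot be told apart here. The repressor gene csp-1 was at 87.8 and 42.3 RPKM, a log2 ratio of -1.04, close to that of al-2. The blue-light-induced gene bli-3 was at 92.9 and 55.7 RPKM (-0.73), and sah-1, a transcription factor gene of aerial growth, was at 14.1 RPKM at DD12 and at 71.1% of that at DD20 (-0.45). The values of con-6 were 6.43 and 1.64 RPKM (-1.49) and those of con-10 were 2.31 and 0.790 RPKM (-0.89), with few reads for both. The conidiation factor gene fl, at 6.90 and 7.72 RPKM, and bli-4, at 0.623 and 0.586 RPKM, had counting intervals that include 0.

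Several of these genes also serve conidia, the asexual spores, and the samples are labelled hyphae. The hyphal markers hex-1, chs-1 and chs-3 were all present, with log2 ratios of 0.36, 0.47 and 0.31. Their summed level was 1906 RPKM at DD12 and 2455 RPKM at DD20, nearly all from hex-1 (1861 and 2395 RPKM). Conidial markers summed to 9333 and 7755 RPKM, nearly all from the hydrophobin gene eas (9199 and 7682 RPKM). Of the 8 conidial markers, 6 were expressed, of which 5 were below 0, against 33.8% of all expressed genes, with a median of -0.72. By its DD20 value alone, 0.790 RPKM, con-10 would not reach the limit of 1 RPKM. No reads were recovered for eas (log2 ratio -0.26), so its ratio has no counting interval. In addition to con-6, con-10, csp-1 and fl given above, csp-2 was at 29.5 and 19.8 RPKM, con-8 at 0.944 and 0.346 RPKM and con-13 at 0.318 and 0.0326 RPKM; 0 of the 8 were at 0. Among genes of sexual development, asd-1 was at 22.0 and 15.9 RPKM, asd-4 at 7.84 and 11.3 RPKM, poi-2 at 1.53 and 0.408 RPKM, and asd-3 at 0.306 and 0.192 RPKM. The part of conidial RNA in the lower levels of vvd, al-1 and the other genes was not tested. In bulk RNA of this kind, fewer cells of a type and less RNA per cell cannot be told apart.

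The steps around AL-1 were looked at through the other genes of the pathway that the table names. The product of the desaturase steps is cut by CAO-2, torulene dioxygenase, and then oxidised by YLO-1, an aldehyde dehydrogenase, to the orange end product neurosporaxanthin. The level of cao-2 was 11.4 RPKM at DD12 and 6.71 RPKM at DD20, a log2 ratio of -0.69. In contrast, ylo-1 was at 50.9 and 53.2 RPKM, with a counting interval of -0.023 to 0.15. The level of ylo-1 was thus close to that of al-2 at DD12 (50.9 and 50.4 RPKM) and above it at DD20 (53.2 and 25.8 RPKM). The related oxygenase gene cao-1, which acts on stilbenes, was at 5.71 and 4.54 RPKM. Of the 5 genes matched in this list of 15, 0 were lower at DD20 by 2-fold or more, against 2.33% of all expressed genes. The sterol gene erg-1, 1 of the 5, was higher by 2-fold or more, against 0.742%. The median log2 ratio of the 5 genes was -0.058.

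Repair of UV damage without light was represented by mus-18, mus-38, mus-40 and mus-43, set beside phr. All 4 were expressed and 0 of them differed by 2-fold, with a median log2 ratio of -0.037. Of all expressed genes, 2.33% were lower by 2-fold or more and 0.742% higher. The endonuclease gene mus-18 was at 1.498 and 1.395 RPKM, and the excision repair gene mus-38 was at 6.76 and 8.38 RPKM. For mus-40 the values were 4.202 and 4.156 RPKM, and for mus-43 they were 4.15 and 3.39 RPKM. The level of phr lay within the range of these 4 genes at both time points.

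**Figure D4:**
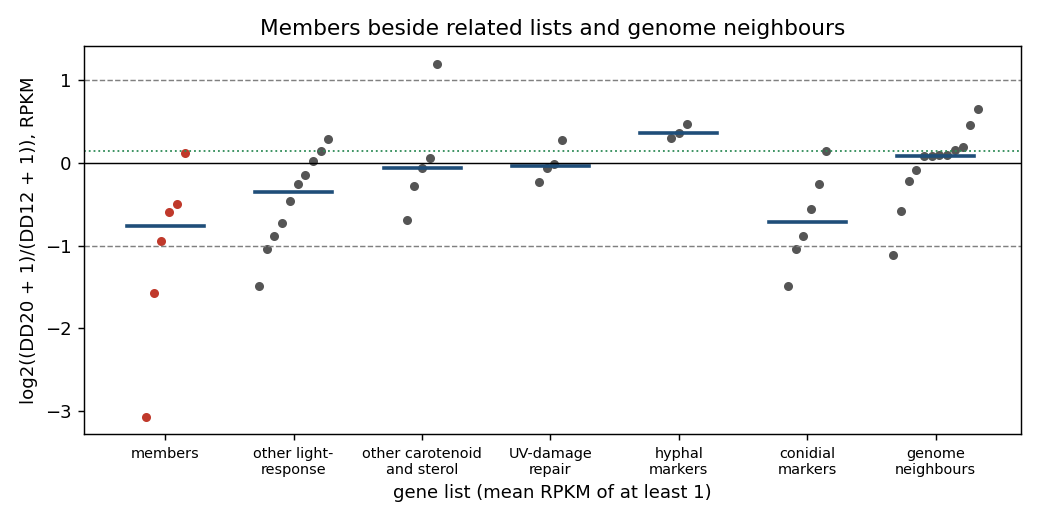
Log2((RPKM at DD20 + 1)/(RPKM at DD12 + 1)) of expressed genes: the 6 expressed members in red, then related lists and the next protein-coding genes on either side of the members, with a blue bar at each median. Dashed lines mark 2-fold and the dotted green line the median of all 7414 genes, 0.15; the medians were -0.76 for the members, -0.35 for other light-response genes and 0.091 for the neighbours, and con-6, con-10, csp-1 and fl appear in both the light and the conidial list.

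By the order of genes in RefSeq, al-2 and cry lie close together, with 2 genes between them. The genes around them named here had log2 ratios between -0.32 and 0.42, against -0.94 for al-2. NCU00584, next to al-2, was at 19.9 and 21.2 RPKM (log2 ratio 0.084), and ncw-6, on its other side, was at 13.9 and 15.6 RPKM (0.16). Beyond cry, NCU00581 was at 7.61 and 6.39 RPKM (-0.22), and the next gene, NCU16450, at 23.4 and 18.6 RPKM (-0.32). Farther past cry, NCU00580, NCU00579 and NCU00578 had log2 ratios of 0.42, 0.23 and 0.018. On the far side of al-2, NCU00590 and NCU00591 had log2 ratios of -0.16 and -0.18, while os-5 was at 0.37. Those of these genes that lie beyond the direct neighbours were named after their values were seen. Next to al-1, NCU00553 was higher at DD20, with 11.5 and 18.7 RPKM, and myo2 was at 10.2 and 11.8 RPKM. On either side of vvd, NCU03966 was at 4.93 and 4.59 RPKM and NCU03968 at 8.75 and 9.40 RPKM. Over all members, 12 of 14 such neighbours were expressed, with a median log2 ratio of 0.091 and a range of -1.12 to 0.66. Of all expressed genes 2.33% were lower at DD20 by 2-fold or more, and of these 12 neighbours 1 was. This was NCU16980, 8657 nt from sub-1, which had 2.02 and 0.395 RPKM from few reads. Only the DD12 value of NCU16980 is above the limit of 1 RPKM. On the other side of sub-1, at 8048 nt, NCU01156 was at 1.12 and 0.807 RPKM. The gene that overlaps al-3, NCU01426, had a log2 ratio of -0.58, beside -0.49 for al-3 itself. Without the added 1, their counting intervals overlapped (-0.83 to -0.42 for NCU01426 and -0.67 to -0.36 for al-3). On the other side of al-3, and farther off, NCU06636 was at 6.25 and 6.71 RPKM. Lastly, phr lay between NCU16496, at 8.51 and 9.15 RPKM, and the ribosomal protein gene crp-7, at 1223 and 1680 RPKM.

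Likeness to other named genes was measured as the distance in log2(RPKM + 1) over the 2 columns. The closest gene with a symbol was con-6 for al-1 (distance 0.25), nit-3, the nitrate reductase gene, for al-2 (0.15), dak-1 for al-3 (0.050), fkr-3 for sub-1 (0.025), asn-2 for phr (0.078) and gh18-2 for cry (0.098). For vvd the closest was again con-6, but at a distance of 1.21, so no named gene had its pair of levels. With 2 values per gene, such likeness is common and describes these columns only.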

How the data were processed

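The authors deposited RPKM values, 1 column per time point, and the submitters' processing notes name CASAVA 1.8 and HISAT without their roles. The genome build, the counting and the strand handling are not given in the sources used here. Both columns were used, with groups taken from the labels. Rows were matched by the symbol in the table, and neighbours and synonyms by RefSeq (assembly NC12), which had entries for 10526 genes. Library totals were recovered as values that make RPKM × RefSeq span nearly whole for many genes with few reads (26.8% at DD12 and 28.2% at DD20). With these totals taken as given, gene lengths were sought that make the reads of both columns whole, within 0.003 reads. All 8720 genes tried had such a length, and the length was unique for 6690. Where several lengths served, the longest was taken. Ratios used a pseudocount of 1, a mean RPKM of at least 1 and a 2-fold limit. No count model or test was run. The members and lists were chosen with earlier results of these data known. Named were the members, all matched genes of the lists, the neighbours, and the nearest gene with a symbol. The ratios, the recovery of totals and the calls were tested on simulated data. Other pseudocounts (0.1 and 5), 3 scalings and 2 filters were tried. Promoter and protein sequences were not analysed here. Python 3.11.15, pandas 2.3.3, numpy 2.4.6, scipy 1.17.1 and matplotlib 3.10.9 were used.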

Additional observations from a re-analysis of the deposited data

How the results depend on the processing

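No paired analysis was possible because DD12 and DD20 have 1 column each, so leaving out a replicate was not possible either. The sign of 6 of the 7 genes was the same under every alternative run. The exception was phr, which changed sign to -0.029 when libraries were rescaled without the 10 most abundant genes and to -0.024 with centred ratios. Of 42 values of single genes under alternatives, 30 moved by less than the counting error, 10 moved further and 2 changed sign. The pseudocount moved vvd, al-1 and cry by more than 0.1 in every such setting, to -3.90, -2.09 and -0.87 at a pseudocount of 0.1, to -1.77, -0.78 and -0.088 at 5, and to -4.04, -2.17 and -1.08 with none, which was added after seeing the data. Without the 10 most abundant genes, al-2 was at -1.13, al-3 at -0.69 and sub-1 at -0.78. The number of members lower by 2-fold or more was 2. It was 1 at a pseudocount of 5, beside 91 of 7414 genes over all. It was 3 with centred ratios (256 of 7414 genes) or without the 10 most abundant genes (268 of 7410). With the expression limit at 10 RPKM, where 3 members are left, it was 0 (102 of 4127 genes). The median of the members moved from -0.76 to -0.96 without the 10 most abundant genes, and to -0.59 both with the limit at 10 RPKM and with no limit, as other members enter it. Of the other light-response genes, 2 were lower by 2-fold or more; there were 0 at a pseudocount of 5, 1 with the limit at 10 RPKM, and 3 at a pseudocount of 0.1, when ratios were centred or without the 10 most abundant genes. Over all genes, the number lower was 91 at a pseudocount of 5, 241 at 0.1 and 256 when ratios were centred, against 173, each of 7414 genes. It was 268 of 7410 without the 10 most abundant genes. With the limit at 10 RPKM it was 102, but of 4127 genes. The number higher was 99 at a pseudocount of 0.1, 29 at 5, 31 when ratios were centred and 27 without the 10 most abundant, against 55. Of the genes called in either direction, 24.1% were the higher ones, against 9.15% when libraries were rescaled without the 10 most abundant and 10.8% when ratios were centred. The causes were not tested. Depth limits cry most, with 80 and 37 reads, and at DD20 vvd and al-1, with 87 and 90 reads.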

Other observations

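The sterol branch uses the same isoprenoid precursors as the carotenoids. Of its genes in the list, 2 were matched. The level of erg-1 was 89.5 RPKM at DD12 and 208 RPKM at DD20, from 4133 and 9348 reads, a log2 ratio of 1.204 with a counting interval of 1.14 to 1.29 (taken without the pseudocount). The level of erg-3, a sterol reductase gene, was 71.2 and 68.4 RPKM, with an interval of -0.15 to 0.033. Thus erg-1 was higher at DD20 while al-1, al-2 and al-3 were lower, and the counting interval of erg-3 includes 0. No explanation was tested.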
